A study of Mus musculus with 4 samples.

Results

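The variable segments of the immunoglobulin heavy chain locus were followed in macrophage cultures from GM1082 KO and wild-type mice. The deposited expression table holds 62046 rows, and the 126 whose gene symbol starts with Ighv form the family described here. The family was taken up after its rows had been seen to be higher in the GM1082 KO libraries, so the differences between genotypes below are a description and support nothing by themselves. Bone marrow cells of either genotype, GM1082 KO (GM1082-/-) or wild type, were kept in M-CSF, the cytokine that turns marrow progenitors into macrophages, until day 5. Each genotype has 2 sequenced libraries of total RNA. Strain, age, sex, batch and the nature of the GM1082 allele are not stated in the labels. Nor is it stated that libraries of 1 genotype are from different mice, so a p-value here reflects the variation among these libraries alone, which could be technical.

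A heavy chain gene is assembled in developing B cells. A D segment is first joined to a J segment, and 1 of the many V segments spread over the locus is then joined to that pair by the RAG recombinase. The V segment supplies the leader peptide and most of the antigen-binding domain, and its own promoter drives the assembled gene, which is spliced to the constant region Ighm and, after class switching, to constant regions such as Igha or Ighg2c. V segments are grouped into families by sequence, and the number before the hyphen in a symbol is the family. Unrearranged V segments are also transcribed at a low level in B cell precursors, and plasma cells hold far more heavy chain RNA per cell than other B cells. In bulk RNA, fewer B lineage cells and less immunoglobulin RNA per cell cannot be told apart.

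All 126 rows lie on the minus strand of chromosome 12, between 113572927 and 116010093, a stretch of 2.44 Mb. Each row was found by its Entrez number in RefSeq on GRCm38.p6 with the same symbol and a start at most 49 bp away, so coordinates are read as GRCm38. RefSeq lists 102 of the rows as V segments and 24 as V segment pseudogenes. The annotated spans of the rows run from 291 to 572 bp. Families Ighv5 and Ighv2 hold the rows nearest the D, J and constant segments, and the family Ighv1, with 66 rows, fills the far part of the locus. The table gives no exon positions, so exons and introns are not separated here.

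At the depth recovered from the table's low values, the GM1082 KO libraries held 17.7 and 18.2 M mapped fragments (M stands for 1000000) in replicates 1 and 2, and both wild-type libraries 19.1 M. Between 51247 and 51550 rows were above 0 in a library. The row at the position of the targeted transcript (RefSeq Arhgap33os, for which Gm1082 is a synonym) stood at 0.0639 and 0.0624 FPKM in GM1082 KO libraries, against 0.0792 and 0.0198 FPKM in wild-type libraries, too low to check the labels. Of the macrophage markers, Adgre1 and Csf1r were abundant in every library, while Mertk stood at 2.87 to 4.18 FPKM over the 4 libraries. Adgre1, the F4/80 antigen, stood at 148 ± 13.7 FPKM in GM1082 KO and 149 ± 3.73 FPKM in wild type, and Csf1r, the M-CSF receptor, at 108 ± 6.09 FPKM in GM1082 KO and 119 ± 2.84 FPKM in wild type (SD, n = 2 each, as throughout). Of 8 macrophage markers tested with limma, 0 passed an adjusted p of 0.05 and 2 had an unadjusted p below 0.05. These were the complement genes C1qa (17.1 and 14.6 FPKM in GM1082 KO, 9.63 and 9.93 FPKM in wild type) and C1qb (21.8 and 25.4 FPKM in GM1082 KO, 16.1 and 18.01 FPKM in wild type).

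Ighv transcripts were present in all libraries and more abundant in both GM1082 KO libraries. Their FPKM, a level per kilobase of row and per M mapped fragments, summed to 326 and 336 in GM1082 KO replicates 1 and 2, against 139 and 220 in wild-type replicates 1 and 2. Neither wild-type library reached the knockout range, and the wild-type libraries differed far more from each other than the knockout libraries did. The group means were 331 ± 6.92 FPKM in GM1082 KO and 179 ± 56.7 FPKM in wild type, a ratio of 1.84. Leaving out wild-type replicate 1 gave a ratio of 1.51, and leaving out wild-type replicate 2 gave 2.38.

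The values of single rows rest on few reads. FPKM values were read as whole multiples of 1 fragment, within 0.06 of a fragment, which gave the fragments behind 124 of the 126 rows with a largest deviation of 0.04. The other 2, Ighv5-8 and Ighv6-4, had more than 1 whole-number solution and were left unresolved. The length over which fragments were counted had a median of 351 bp. Over the 4 libraries together a row had a median of 30.5 fragments and at most 430, and 34 rows had fewer than 10. The sums were 2109 and 2229 fragments in GM1082 KO libraries and 966 and 1513 fragments in wild-type libraries. Per M mapped fragments these were 119 (95% Poisson interval 114 to 124) and 123 (118 to 128) in GM1082 KO, against 50.7 (47.5 to 54.0) and 79.3 (75.4 to 83.4) in wild type. The intervals cover counting error only. They overlap between the knockout libraries and are apart between the wild-type libraries, so the spread between the wild-type libraries was larger than counting error.

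**Figure D1:**
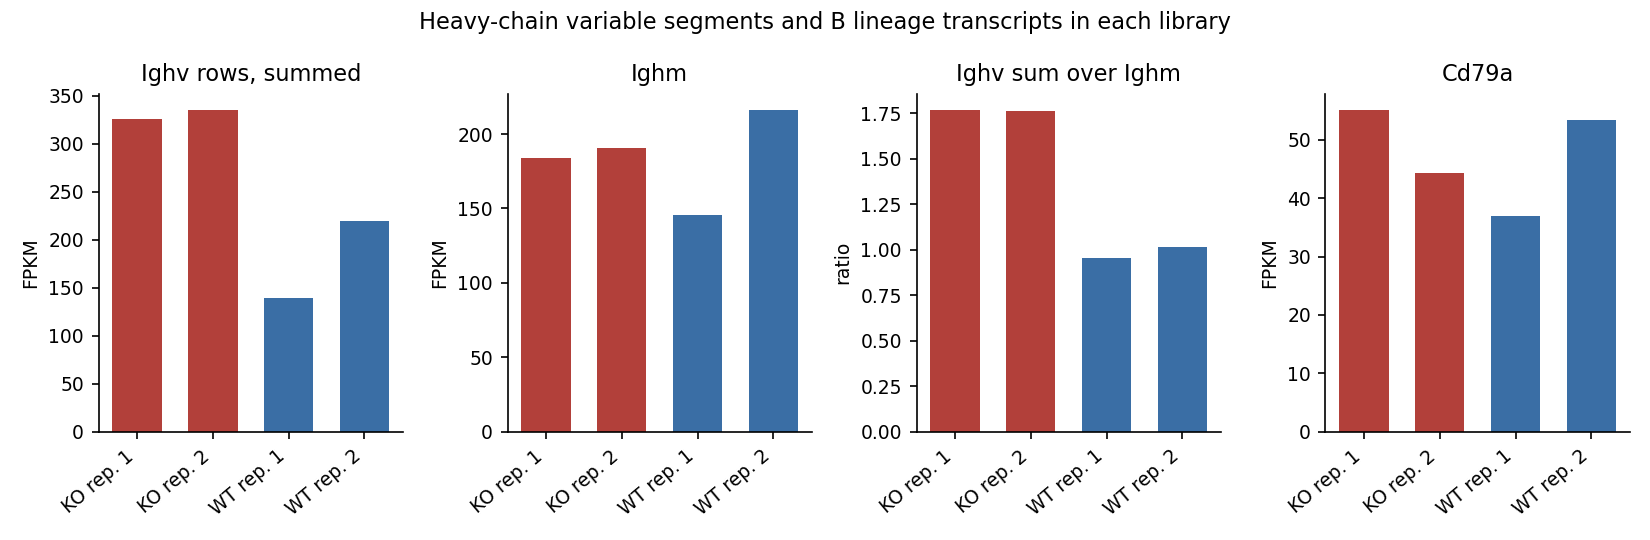
Bars give, for each library, the summed FPKM of the 126 Ighv rows, the FPKM of Ighm, the ratio of these, and the FPKM of the B cell receptor gene Cd79a, with GM1082 KO in red and wild type in blue. The Ighv sum (326 and 336 in GM1082 KO, 139 and 220 in wild type) and its ratio to Ighm separate the genotypes, while Ighm and Cd79a overlap.

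Ighm and most B cell surface genes overlapped between genotypes where the Ighv sum did not. Ighm, the heavy chain constant region to which a newly assembled V segment is joined, stood at 184 and 191 FPKM in GM1082 KO, against 146 and 216 FPKM in wild type. Ighv FPKM per Ighm FPKM was therefore 1.77 and 1.76 in GM1082 KO, against 0.956 and 1.01 in wild type. The ratio was close within each genotype and did not overlap between them. Cd79a, a signalling chain of the B cell receptor, overlapped, with 55.1 and 44.2 FPKM in GM1082 KO and 36.9 and 53.3 FPKM in wild type. Of 10 B cell surface and receptor genes, 9 were tested and 0 passed with limma in either direction (1, Fcer2a, at an unadjusted p below 0.05). Their summed level was 156 to 197 FPKM in GM1082 KO and 131 to 196 FPKM in wild type. Of the 10, 3 lay above wild type without overlap (30%, where 14.5% of all rows did) and 0 below. The 3, named after their values were seen, were Cd22, Cr2 and Fcer2a. Fcer2a, the low-affinity IgE receptor of B cells, stood at 7.01 and 5.20 FPKM in GM1082 KO, against 2.70 and 4.27 FPKM in wild type.

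The other constant regions lay higher in GM1082 KO. Ighd, the constant region co-expressed with Ighm in mature B cells, stood at 42.4 and 41.9 FPKM in GM1082 KO, against 15.01 and 29.7 FPKM in wild type. Of 8 constant region genes, 7 are in the table and 6 were tested, and 1 passed with limma, Igha (adjusted p = 0.00945). Igha, the constant region of IgA, stood at 26.3 and 40.4 FPKM in GM1082 KO, against 1.04 and 0.884 FPKM in wild type. With either knockout library left out, 0 rows of the whole table passed, so Igha did not, and 0 passed with a filter of 0.1 FPKM or none. Ighg2c, an IgG constant region, stood at 13.2 and 25.7 FPKM in GM1082 KO, against 1.15 and 0.237 FPKM in wild type (adjusted p = 0.203), and Ighg2b at 3.56 and 4.38 FPKM in GM1082 KO, against 0.255 and 0.450 FPKM in wild type (adjusted p = 0.154). In 6 of the 7 constant regions, all but Ighm, GM1082 KO lay above wild type without overlap, as did 14.5% of all rows in the table. Summed over the 7, the constant regions held 272 and 307 FPKM in GM1082 KO and 164 and 248 FPKM in wild type. Ighv FPKM per constant region FPKM was 1.20 and 1.09 in GM1082 KO and 0.851 and 0.884 in wild type, which is a smaller gap than against Ighm alone.

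Plasma cell markers gave no common picture. Jchain, which links the units of secreted IgM and IgA, stood at 5.87 and 13.8 FPKM in GM1082 KO, against 1.04 and 1.39 FPKM in wild type (limma adjusted p = 0.433). Xbp1, a transcription factor needed by plasma cells and also used by macrophages, overlapped at 158 and 148 FPKM in GM1082 KO and 167 and 154 FPKM in wild type. Of 9 plasma cell genes, 7 were tested, of which 3 had a higher mean in GM1082 KO and 0 passed with limma (1, Jchain, at an unadjusted p below 0.05). The list summed to 225 and 218 FPKM in GM1082 KO and 230 and 225 FPKM in wild type. Xbp1 alone gave 148 to 167 FPKM of these sums, so they say little about plasma cells. The defining plasma cell receptor Tnfrsf17 was listed at 0 in 1 library of each genotype and reached at most 0.27 FPKM.

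Most of the listed genes of recombination and B cell precursors had a lower mean in GM1082 KO. Rag1, the DNA-cutting subunit of the recombinase, stood at 4.74 and 2.88 FPKM in GM1082 KO, against 6.63 and 9.79 FPKM in wild type. Rag2, its partner, stood at 0.494 and 0.274 FPKM in GM1082 KO, against 0.812 and 1.16 FPKM in wild type. Neither overlapped between genotypes. Of 14 genes of recombination and B cell precursors, 12 had a lower mean in GM1082 KO and 2 a higher one. Of all rows in the table, 50.9% had a higher mean. Without overlap, 7 of the 14 lay below wild type (50%, where 14% of all rows did) and 2 above (14.3%, where 14.5% did). The 2 above, named after their values were seen, were Nhej1 and Xrcc5. Of the 12 tested, 0 passed with limma and 3 were lower at an unadjusted p below 0.05, against 700 of all 24535. The part of B cell and plasma cell numbers in the Ighv levels was not tested.

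No single Ighv row passed the test across the table. Of the 126 rows, 65 reached the mean of 1 FPKM over the 4 libraries that the test required, and with limma 0 of these passed an adjusted p of 0.05, where 0.0122% of all 24535 rows tested did and 0.00815% did with higher values in GM1082 KO. At an unadjusted p below 0.05 there were 29 Ighv rows, all 29 with higher values in GM1082 KO, against 614 higher and 700 lower rows in the whole table. The smallest adjusted p was 0.142, for Ighv5-12, whose wild-type mean was under 1 FPKM, so that it passed the filter only through the knockout libraries. Leaving out wild-type replicate 1 brought Ighv5-12 past the threshold (adjusted p = 0.0156). Leaving out wild-type replicate 2 brought in 5 rows, Ighv1-26, Ighv1-53, Ighv1-55, Ighv1-72 and Ighv5-12 (adjusted p between 0.0023 and 0.0483). Leaving out either knockout library gave 0. With 1 library left in a genotype, the spread comes from the other genotype alone and the lone library is assumed to vary like it. For these calls the spread was drawn largely from the knockout libraries over all rows tested, not from the row alone. Ighv1-72, for example, stood at 5.56 and 3.06 FPKM in the knockout libraries.

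Direction was shared by most rows, in the contrast for which the family was chosen. Of the 65 rows tested, 58 had a higher mean in GM1082 KO, where 47.8% of all rows tested did, and 34 had no overlap above wild type, where 13.2% did. Tested rows with a wild-type mean under 1 FPKM, such as Ighv1-77 (0.516 FPKM) and Ighv3-8 (0.599 FPKM), passed the filter only through knockout values. The filter itself fixed their higher knockout mean, which weighs on the 58, the 34 and the median below. Ighv1-85, with a knockout mean of 0.722 FPKM, passed only through wild type. Over all 126 rows, including those under the filter, 100 had a higher mean in GM1082 KO and 26 a lower one, where 50.9% of all rows in the table had a higher mean in GM1082 KO. In 51 rows the lowest knockout value exceeded the highest wild-type value, as in 14.5% of all rows, and in 4 rows the highest knockout value was under the lowest wild-type value, as in 14% of all rows. The 4 were Ighv1-85, Ighv1-41, Ighv1-1 and Ighv11-1, named after their values were seen. The median difference was 0.53 on the log2(FPKM + 1) scale over the 65 rows tested and 0.29 over all 126, against -0.01 over all rows tested. The difference over the 65 was 0.86 without wild-type replicate 2.

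**Figure D2:**
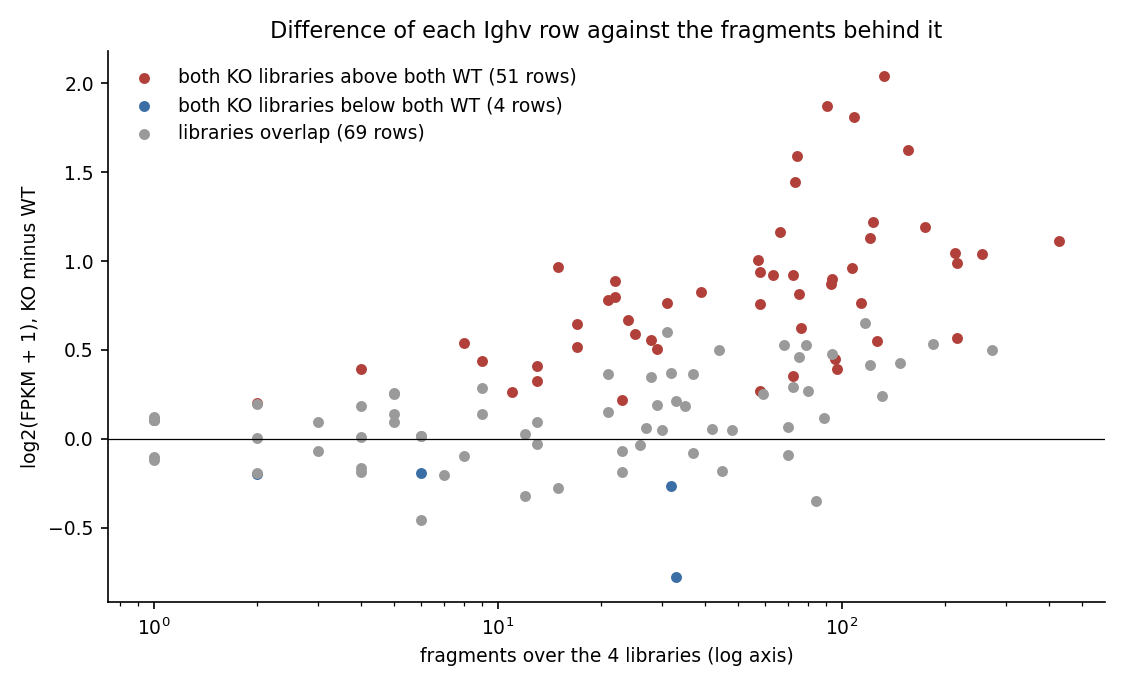
Each point is 1 of the 124 Ighv rows with resolved fragments, with the fragments over the 4 libraries on a log axis and the difference GM1082 KO minus wild type in log2(FPKM + 1). Rows without overlap above wild type (51, red) spread from few to many fragments, the 4 rows below both (blue) have at most 33 fragments, and rows with few fragments lie near 0, where the added 1 FPKM compresses differences.

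Ighv1-26 was the most abundant segment in every library. It lies in the middle of the locus (chromosome 12, 114788372 to 114788805) and held 7.30% and 6.64% of the Ighv sum in GM1082 KO, against 5.47% and 6.05% in wild type. Its level was 23.8 and 22.3 FPKM (148 and 142 fragments) in GM1082 KO, against 7.62 and 13.3 FPKM (51 and 89 fragments) in wild type. The genotypes did not overlap, and the difference was 1.11 on the log2(FPKM + 1) scale (SE 0.24).

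The next most abundant rows came from other families as well as from Ighv1. Ighv9-3 (114140692 to 114141122) stood at 13.3 and 11.3 FPKM in GM1082 KO, against 5.83 and 11.9 FPKM in wild type. Ighv3-6 (114288152 to 114288582) stood at 10.3 and 17.0 FPKM in GM1082 KO, against 4.05 and 8.53 FPKM in wild type. Ighv9-3 overlapped between genotypes, with wild-type replicate 2 inside the knockout range, while Ighv3-6 did not overlap.

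The other 7 of the 10 most abundant rows were all of family Ighv1. Ighv1-18 (114682632 to 114683065) stood at 9.003 and 11.3 FPKM in GM1082 KO, against 5.38 and 7.76 FPKM in wild type. Ighv1-82 (115952538 to 115953005), near the far end of the locus, stood at 10.96 and 9.99 FPKM in GM1082 KO, against 3.80 and 5.97 FPKM in wild type. Both were without overlap. Ighv1-64 (115507545 to 115508031) stood at 7.38 and 12.9 FPKM in GM1082 KO, against 3.63 and 4.92 FPKM in wild type. Ighv1-9 (114583569 to 114584002) stood at 7.72 and 12.1 FPKM in GM1082 KO, against 2.99 and 4.48 FPKM in wild type. In both of these rows knockout replicate 2 was the highest library and wild-type replicate 1 the lowest. Ighv1-81 (115920279 to 115920712) stood at 6.59 and 10.7 FPKM in GM1082 KO, against 4.18 and 7.17 FPKM in wild type. Ighv1-69 (115623161 to 115623595) stood at 6.59 and 6.44 FPKM in GM1082 KO, against 2.99 and 6.87 FPKM in wild type. These last rows overlapped, and in each the higher wild-type value was that of replicate 2. Of the 10 most abundant rows, 7 lay above wild type without overlap, as did 13.2% of all rows tested.

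Among rows tested, the widest differences were in rows with few fragments in wild type. The filter is a mean over the 4 libraries, so a row under 1 FPKM in wild type enters only through its knockout values. Ighv5-12 and Ighv1-72 (wild-type means 0.965 and 0.860 FPKM) entered this way, so the filter itself fixed that their knockout means were higher. Ighv1-55 (115208095 to 115208591) had 51 and 61 fragments in GM1082 KO (6.93 and 8.10 FPKM), against 2 and 19 fragments in wild type (0.253 and 2.40 FPKM). Its difference was 2.04 on the log2(FPKM + 1) scale, 1.32 without wild-type replicate 1 and 2.76 without replicate 2. Ighv5-12 (113702124 to 113702578), in the near part of the locus, had 38 and 40 fragments in GM1082 KO (6.07 and 6.24 FPKM), against 8 and 5 fragments in wild type (1.19 and 0.742 FPKM). Replicates of Ighv5-12 lay close in both genotypes, with means of 6.16 ± 0.119 FPKM in GM1082 KO and 0.965 ± 0.315 FPKM in wild type. Ighv1-54 (115193675 to 115194134) stood at 4.94 and 8.62 FPKM in GM1082 KO, against 1.53 and 0.834 FPKM in wild type. Ighv1-59 (115335082 to 115335514) stood at 3.54 and 5.81 FPKM in GM1082 KO, against 0.896 and 1.19 FPKM in wild type. Both were lowest in wild type and highest in knockout replicate 2.

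Single libraries also weighed on Ighv1-80 and Ighv1-72. Ighv1-80 (115912344 to 115912776) stood at 5.63 and 14.1 FPKM in GM1082 KO, against 1.64 and 2.99 FPKM in wild type, and knockout replicate 2 held 57.9% of its sum over the 4 libraries. Ighv1-72 (115757984 to 115758461) stood at 5.56 and 3.06 FPKM in GM1082 KO, against 0.132 and 1.59 FPKM in wild type, where the lowest value was 1 fragment. Its difference was 1.59 on the log2(FPKM + 1) scale, and 1.00 without wild-type replicate 1. For Ighv1-80 the difference was 1.63, and 1.03 without knockout replicate 2.

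**Figure D3:**
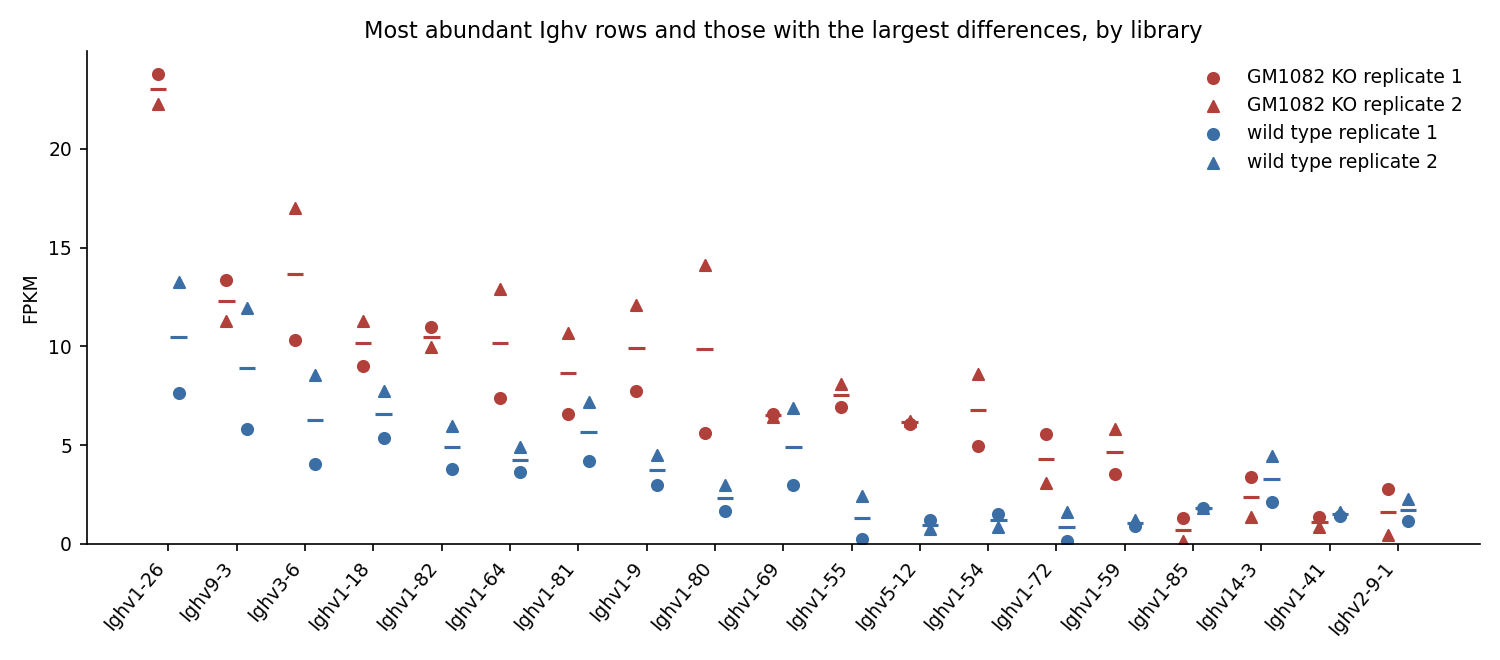
FPKM of the 10 most abundant Ighv rows, followed by the tested rows with the widest positive and negative differences, for each library (circles replicate 1, triangles replicate 2, dashes group means, GM1082 KO in red left of wild type in blue). Ighv1-26 stands above all other rows, and in Ighv1-85, Ighv14-3, Ighv1-41 and Ighv2-9-1 the knockout mean is the lower one.

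A lower mean in GM1082 KO was found in 26 of the 126 rows, and the 4 tested rows with the widest such differences were Ighv1-85, Ighv14-3, Ighv1-41 and Ighv2-9-1. Ighv1-85 (116000028 to 116000461), next to the last row of the locus, had 8 and 1 fragments in GM1082 KO (1.29 and 0.157 FPKM), against 12 and 12 fragments in wild type (1.79 and 1.79 FPKM). Ighv1-41, which RefSeq lists as a pseudogene (114932371 to 114932782), had 8 and 5 fragments in GM1082 KO and 9 and 10 fragments in wild type. Neither overlapped, though by no more than a few fragments in single libraries. Ighv14-3 (114059845 to 114060321) overlapped, with 3.39 and 1.38 FPKM in GM1082 KO and 2.10 and 4.47 FPKM in wild type, as did Ighv2-9-1 (113769850 to 113770302), with 2.75 and 0.448 FPKM in GM1082 KO and 1.14 and 2.27 FPKM in wild type. For these last rows the sign turned when knockout replicate 2 or wild-type replicate 2 was left out.

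All 13 families had a higher mean sum in GM1082 KO, by very different amounts. In 7 of them the genotypes did not overlap. Ighv1, the largest family, summed to 199 and 209 FPKM in GM1082 KO, against 79.6 and 120 FPKM in wild type, a ratio of means of 2.05. Ighv5, the family nearest the D segments, summed to 29.4 and 28.3 FPKM in GM1082 KO, against 10.9 and 19.5 FPKM in wild type, a ratio of 1.90. Ighv3 summed to 14.7 and 23.9 FPKM in GM1082 KO, against 6.34 and 11.6 FPKM in wild type, a ratio of 2.15. In each of these families the lowest library was wild-type replicate 1.

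Smaller families without overlap were Ighv7, Ighv9, Ighv10 and Ighv12. Ighv7, with 2 of its 3 rows listed as pseudogenes, summed to 8.25 and 10.01 FPKM in GM1082 KO, against 4.43 and 5.35 FPKM in wild type. Ighv10 summed to 5.44 and 7.78 FPKM in GM1082 KO, against 2.00 and 4.89 FPKM in wild type. Ighv9 rested mainly on Ighv9-3 and came close to overlap, at 16.7 and 15.7 FPKM in GM1082 KO and 6.72 and 14.8 FPKM in wild type. Ighv12 differed little, at 2.87 and 2.50 FPKM in GM1082 KO and 2.08 and 1.78 FPKM in wild type.

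The remaining families overlapped. Ighv2, whose rows alternate with those of Ighv5, summed to 13.4 and 8.15 FPKM in GM1082 KO and 5.92 and 8.18 FPKM in wild type. Ighv14 summed to 13.4 and 10.2 FPKM in GM1082 KO and 7.18 and 12.2 FPKM in wild type. Ighv8 summed to 8.01 and 10.04 FPKM in GM1082 KO and 6.41 and 9.62 FPKM in wild type. Their ratios of means were 1.53, 1.21 and 1.13. Ighv6 summed to 11.2 and 5.72 FPKM in GM1082 KO and 5.74 and 8.97 FPKM in wild type. Ighv4 summed to 2.26 and 4.32 FPKM in GM1082 KO and 1.52 and 2.69 FPKM in wild type. Ighv11, the faintest family, stayed at or below 0.734 FPKM in every library.

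**Figure D4:**
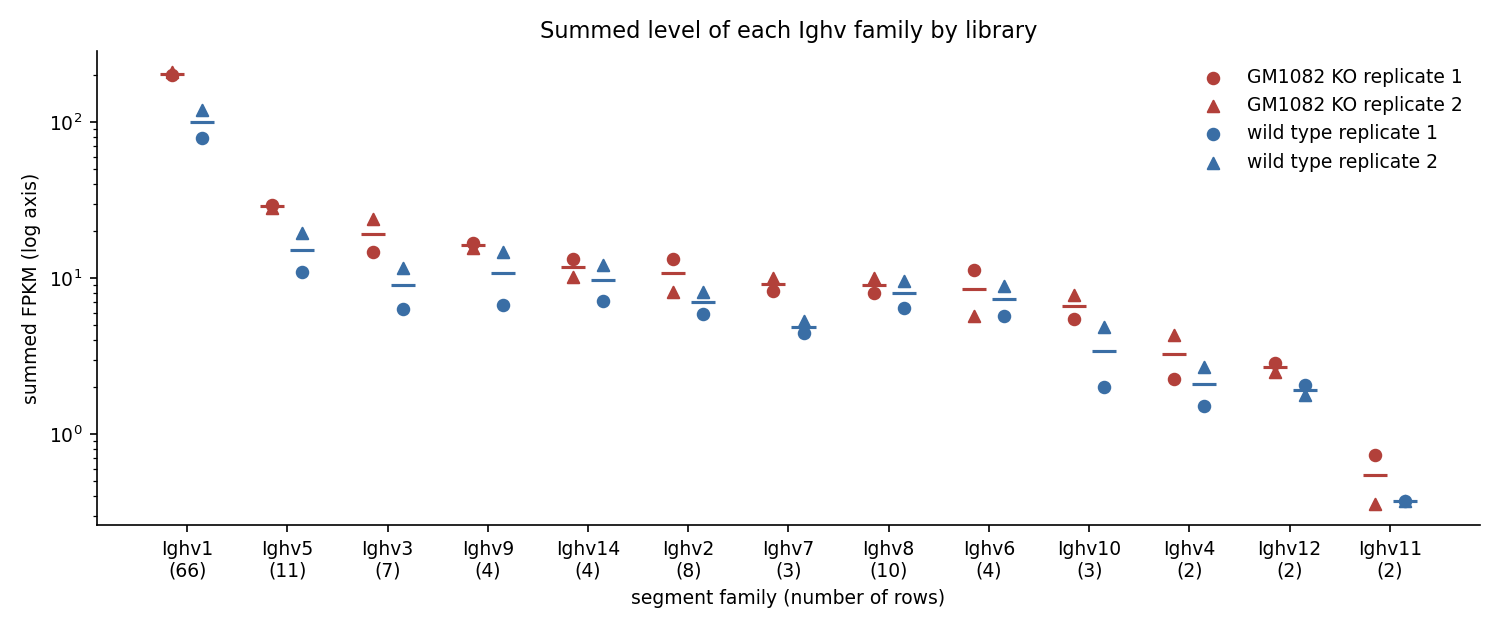
Summed FPKM of each Ighv family on a log axis, with the number of rows in brackets, for each library (circles replicate 1, triangles replicate 2, dashes group means, GM1082 KO in red left of wild type in blue). The knockout points lie above the wild-type points in 7 families, among them Ighv1 at 199 and 209 FPKM against 79.6 and 120 FPKM, and mix with them in Ighv2, Ighv4, Ighv6, Ighv8, Ighv11 and Ighv14.

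Within the Ighv fragments of a library, Ighv1 took more than 50% in all 4 libraries. Ighv1 took 61.4% (exact binomial 95% interval 59.3 to 63.5) and 62.1% (60.0 to 64.1) in GM1082 KO, against 57.0% (53.8 to 60.2) and 54.7% (52.1 to 57.2) in wild type. Its share did not overlap between genotypes, while the intervals of both knockout libraries overlap that of wild-type replicate 1. Ighv14 took 4.08% and 2.96% in GM1082 KO, against 5.18% and 5.68% in wild type. Ighv8 took 2.32% and 2.92% in GM1082 KO, against 4.35% and 4.30% in wild type, and Ighv6 3.37% and 1.66% in GM1082 KO, against 4.04% and 3.83% in wild type. In each of these the interval of 1 knockout library overlaps those of both wild-type libraries. The knockout share was the higher one without overlap in 1 family, the lower one in those 3, and overlapped in the other 9, Ighv5 among them (9.39% and 8.88% in GM1082 KO, 8.39% and 8.99% in wild type). Since the shares of a library sum to 100%, a higher share of Ighv1 lowers the others.

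As a share of its library's Ighv sum, a row was about as often lower as higher in GM1082 KO. Of the 126 rows, 24 had higher knockout shares without overlap and 26 had lower ones. By FPKM rather than share, 14.5% of all rows in the table lay above wild type without overlap and 14% below. The order of the rows was also much the same in all libraries. Spearman's rho over the 126 rows was 0.86 between the knockout libraries and 0.81 between the wild-type libraries, and between 0.78 and 0.84 across genotypes. These correlations are across rows, which are not independent replicates and share annotated lengths, so no p is given.

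Concentration on a few segments was low in each library. A share of 50% of the Ighv sum was reached with 19 and 16 rows in GM1082 KO, and with 20 and 19 rows in wild type. The 10 highest rows of a library held 32.9% and 38.8% of it in GM1082 KO, and 32.8% and 35.4% in wild type. Rows above 0 numbered 109 and 109 in GM1082 KO, against 103 and 108 in wild type. Calculated for 900 fragments per library, to set aside depth, 100 and 95.6 rows would be seen in GM1082 KO and 102 and 101 in wild type. Knockout replicate 2 was the most concentrated library by each of these measures except rows above 0. Of the 65 rows tested, 6 had more than 50% of their 4-library sum in 1 library, 2 in knockout replicate 1 and 4 in knockout replicate 2. These were Ighv1-58 and Ighv1-72 in replicate 1, and Ighv1-54, Ighv1-59, Ighv1-80 and Ighv3-8 in replicate 2.

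The wild-type libraries differed by a shift common to most rows. Wild-type replicate 2 was above replicate 1 in 49 of the 65 rows tested, with a median ratio of 1.57. Knockout replicate 2 was above replicate 1 in 31 of 65, with a median ratio of 0.976. In single rows the SD of FPKM was larger in GM1082 KO than in wild type in 42 of the 65. This SD is not scaled by level, and 58 of the 65 had a higher mean in GM1082 KO. Wild-type replicate 1 was the lowest library in 43 of the 65. The lower level of wild-type replicate 1 was shared by Ighm and Cd79a, and its part in the Ighv differences was not tested.

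Rows along the whole locus were higher in GM1082 KO. When the 126 rows were parted by position into 4 stretches of 31 or 32 rows, the stretch nearest the D segments (113572927 to 114127984) summed to 66.8 and 60.2 FPKM in GM1082 KO, against 29.7 and 47.0 FPKM in wild type. The farthest stretch (115258136 to 116010093) summed to 95.2 and 97.6 FPKM in GM1082 KO, against 39.6 and 55.9 FPKM in wild type. In order from the D segments outwards, the ratios of means were 1.66, 1.73, 1.94 and 2.02, and no stretch overlapped between genotypes. Family and position go together in the locus, with 0 Ighv1 rows in the nearest stretch and 27 of 32 in the farthest, and their parts in these ratios were not tested. Spearman's rho between position and difference over the 65 rows tested was 0.26, given as a description.

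**Figure D5:**
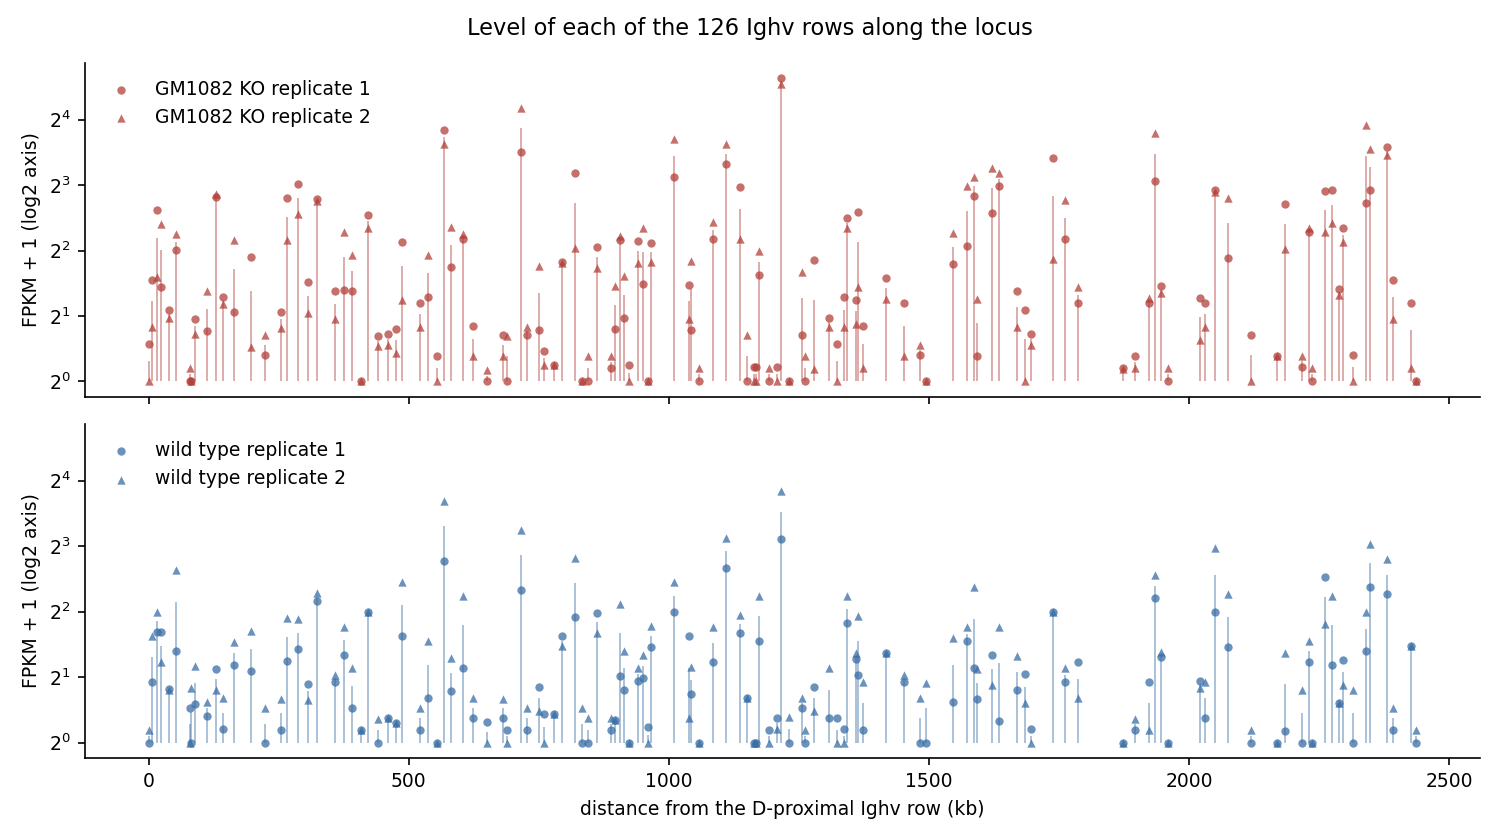
FPKM + 1 on a log2 axis of the 126 Ighv rows against distance in kb from the D-proximal row, for GM1082 KO (red, upper panel) and wild type (blue, lower panel), with circles for replicate 1, triangles for replicate 2 and lines up to the group mean. High and low rows alternate along the whole locus, with the highest row, Ighv1-26, near the middle in both genotypes.

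The rows at the ends of the locus ranged in rank from 28 to 126 of 126 by mean level. Nearest the D segments, Ighv5-1, a pseudogene, had 3 and 0 fragments in GM1082 KO and 0 and 1 fragments in wild type. Ighv5-2 (113578504 to 113578990), the first functional segment and one known for frequent use in early B cell precursors, stood at 1.92 and 0.780 FPKM in GM1082 KO and 0.891 and 2.08 FPKM in wild type. Ighv2-2 (113588267 to 113588702) stood at 5.13 and 2.03 FPKM in GM1082 KO and 2.23 and 2.98 FPKM in wild type. All of these overlapped between genotypes. At the far end, Ighv1-83 (115963817 to 115964250) had 12 and 6 fragments in GM1082 KO, against 1 and 3 fragments in wild type, without overlap and under the filter. Ighv1-86, the last row, had 1 fragment in wild-type replicate 2 and was listed at 0 in the other libraries.

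Rows listed as pseudogenes were fainter and also higher in GM1082 KO. The 24 pseudogene rows summed to 18.7 and 17.2 FPKM in GM1082 KO, against 10.2 and 11.8 FPKM in wild type, a ratio of means of 1.63. The 102 rows listed as V segments summed to 307 and 318 FPKM in GM1082 KO, against 129 and 208 FPKM in wild type, a ratio of 1.86. Only 4 pseudogene rows were tested, of which Ighv7-1 (113896408 to 113896946) was the highest, at 5.91 and 5.77 FPKM in GM1082 KO and 3.47 and 3.90 FPKM in wild type. V segments of 1 family resemble each other, and how the authors assigned reads that match several of them is not given in the sources used here, so values of single rows are uncertain.

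The 61 rows under the filter had means between 0.0371 and 0.994 FPKM. They summed to 32.5 and 25.9 FPKM in GM1082 KO, against 13.9 and 22.7 FPKM in wild type, and 42 of them had a higher mean in GM1082 KO. Just inside the filter, Ighv3-8 and Ighv1-77 had means of 1.07 and 1.05 FPKM, and just outside it Ighv1-34 and Ighv1-31 had 0.994 and 0.971 FPKM. In all, 9 rows had fragments in GM1082 KO and were listed at 0 in wild type, and 7 the other way round, none with more than 6 resolved fragments in all.

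Light chain variable segments, the rows most like these, were also higher in GM1082 KO. The 126 Igkv rows, the variable segments of the kappa light chain, summed to 255 and 297 FPKM in GM1082 KO, against 127 and 169 FPKM in wild type. Ighv FPKM per Igkv FPKM was 1.28 and 1.13 in GM1082 KO and 1.10 and 1.30 in wild type, and this ratio overlapped between genotypes. Of 53 Igkv rows tested, limma called 0. Before adjustment 34 were below 0.05, all with higher values in GM1082 KO, where 614 of all 24535 rows tested were. The median difference of the Igkv rows tested was 0.74 on the log2(FPKM + 1) scale, against 0.53 for Ighv, and whether these differ was not tested. The genotypes did not overlap, with GM1082 KO higher, in 41.3% of the Igkv rows and 40.5% of the Ighv rows, where 14.5% of all rows did so. The 3 Iglv rows, of the lambda light chain, summed to 75.9 and 76.7 FPKM in GM1082 KO, against 52.4 and 56.5 FPKM in wild type. Their ratio of means was 1.40 and their median difference 0.25, both smaller than those of Ighv.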

How the data were processed

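The authors deposited 1 table of FPKM values (fragments per kilobase and per M mapped fragments) for 4 libraries, per the file headers. The submitters' processing notes name Bowtie 0.12.2 and mm9. The coordinates match GRCm38. Neither the counting tool, its strand setting nor its handling of multiply matching reads is stated. Mapped fragments per library were recovered as the period of FPKM times span in noncoding rows of 1000 to 3000 bp. Fragments of an Ighv row were the whole numbers that fitted all 4 libraries at 1 length (117 rows with 1 solution, 7 settled by the length of rows of like span, 2 unresolved).

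All rows averaging 1 FPKM or more entered limma 3.58.1 (R 4.3.3) as log2(FPKM + 1) values (trended eBayes, genotype only, all 4 libraries), with Benjamini-Hochberg adjustment over 24535 rows. The script was tested on simulated data with changes wider than those of most Ighv rows, so that test does not cover differences of their size. Differences are GM1082 KO minus wild type. An exact permutation test of 2 libraries against 2 cannot go below p = 0.333, so none is given.

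The members, lists and tests were chosen with earlier results of these data known. Named rows were the 10 most abundant, the 6 widest positive and 4 widest negative differences among rows tested, 3 at each end of the locus, the top row of each library, the 4 most concentrated in 1 library, and the first 2 genes of each marker list. One gene of these lists is not reported here. Other rows were chosen after their values were seen. Alternatives were another pseudocount, other filters, quantile normalization, median-of-ratios scaling, an untrended eBayes, the replicate number as a block and each library left out. No promoter or segment sequence is printed.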

Additional observations from a re-analysis of the deposited data

How the results depend on the processing

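With pseudocount 0.1, filters of 0.1 and 5 FPKM or none, both other scalings, eBayes without a trend and the replicate block, 0 Ighv rows passed. With a library left out, 0 to 5 passed, the lone library being assumed to vary like the other genotype. The median difference was 0.99 with a filter of 5 FPKM and 0.29 with no filter, and 0.45 to 0.86 with a library left out. Rows with a higher mean in GM1082 KO numbered 58 of the 65 with a mean of at least 1 FPKM. Rows with no overlap above wild type numbered 58 to 79 with a library left out, a comparison that fewer libraries make easier. Over the left-out libraries the ratio of sums ranged from 1.51 to 2.38, and it was 1.82 without Ighv1-26. Among named rows, the log2 difference changed sign in Ighv1-69 (-0.066 to 0.91), Ighv14-3 (-0.79 to 0.094), Ighv2-9-1 (-0.87 to 0.51), Ighv5-1 (-0.10 to 0.47), Ighv5-2 (-0.44 to 0.27) and Ighv2-2 (-0.24 to 0.77); the cause was not tested. Values of named rows under the alternatives moved by less than the spread of replicates in 155 cases, by more in 11, and changed sign in 9. Chosen after seeing the data, restricting to rows with at least 10 fragments left 77 rows higher on average and 47 without overlap, with a ratio of sums of 1.86. Leaving out the 10 rows that overlap a noncoding row gave 91, 50 and 1.90. Replicate numbers pair nothing in the labels, and deviations of same-numbered libraries correlated with r = 0.05 over all rows tested. With the replicate block, the median difference was 0.53 and 0 Ighv rows passed (smallest adjusted p = 0.0794, limma). Single rows are limited by depth, with a median of 30.5 fragments over 4 libraries.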
